A study of Saccharomyces cerevisiae with 8 samples.

Results

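The genes described are 32 chaperone and heat shock genes of Saccharomyces cerevisiae, followed through the accessibility of their promoters. They were chosen by name, and all 32 names matched a gene in the RefSeq table of assembly R64 (sacCer3), out of 6002 protein-coding genes. A gene counted as having a promoter summit when the summit of a called sub-peak fell between 400 bp before and 100 bp after its annotated start. Chromosome IV carries the centromere that the study manipulates, so the 6 members on it (SSB1, CPR1, CDC37, HSP42, AHA1 and HSP78) were kept apart from the other 26.

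Accessibility was measured by ATAC-seq, in which Tn5 transposase inserts sequencing adapters into exposed DNA, in haploid MATa cells of the S288c background. The labels give 4 groups of 2 samples. A control strain, CEN4, has no lox sites beside its chromosome IV centromere and was sampled untreated at 0 min and at 180 min with 1 uM beta-estradiol. A second strain has that centromere between lox sites. It is called CEN4* untreated at 0 min and cen4- at 180 min with 1 uM beta-estradiol, after excision by Cre recombinase. Time and beta-estradiol changed together in both strains and cannot be told apart. Expression is not analysed here, and in whole populations more cells with an open promoter and a more open promoter per cell cannot be told apart.

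Chaperones bind unfolded proteins and help them fold, keep them soluble or pull them out of aggregates. Hsp70 proteins work in cycles of ATP hydrolysis that J proteins start and nucleotide exchange factors end, and Hsp90 finishes the folding of kinases, receptors and other clients with a set of co-chaperones. In budding yeast the heat shock factor Hsf1 drives many of these genes, and the general stress factors Msn2 and Msn4 drive some of them. Some members are abundant in unstressed cells, such as SSA2, SSB1 and HSC82, while SSA3, SSA4 and HSP26 are known for strong induction by heat or starvation.

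The 4 lists analysed carry a strain code, 8 or 11, and a time in their names. The labels do not connect these codes with the strains, which are therefore named by code. There is 1 list for each code and time and none carries a replicate number, so nothing here could be tested against replicate error and differences are descriptions. The lists held 6588 to 7093 sub-peaks. Each level is a relative pileup, which is the number of sequenced fragments stacked on the summit divided by the genome-wide background pileup of the same list. That background was 413.7 in code 8 at 0 min and 439.2 at 180 min, while code 11 had 601.7 and then 512.2, so its pileups carry less counting error. Where 4 levels of a gene follow each other, they are those of code 8 at 0 and 180 min and then those of code 11 at 0 and 180 min. The counting standard error of a member's log2 change ran from 0.02 to 0.08. It covers counting error alone, since fragments from PCR are not independent molecules.

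Most of the chaperone genes had a called promoter summit, and nearly the same genes had it in every list. In code 8 it was 28 of 32 at 0 min (87.5%, exact Clopper-Pearson 95% interval 71.0 to 96.5%), where 64.7% of all protein-coding genes had one. At 180 min it was 29 of 32, against 64.6% of all genes. In code 11 the members numbered 29 at 0 min and 28 at 180 min, against 65.6% and 64.3% of all genes. All 4 lists had a summit for 28 members, against 60.8% of all genes. SSA3, HSP26 and YDJ1 had none in any list, as did 31.2% of all genes. CDC37 was the 1 member with a summit in some lists only, a state found in 7.98% of all genes.

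CDC37 (YDR168W, chromosome IV, 790328 to 791848), the Hsp90 co-chaperone that brings in kinases, changed call in opposite directions in the codes. In code 8 it had no summit at 0 min and 1.85 times the background at 180 min. It was thereby the 1 gained summit among the 4 members without one at 0 min, where 6.43% of all such genes gained one. In code 11 it had 1.96 at 0 min and no summit at 180 min, which made it the 1 lost summit among 29, where 4.39% of all genes lost theirs. Code 8 lost 0 of 28, where 3.73% of all genes lost a summit, and code 11 gained 0 of 3, where 4.46% did. Both of these summits lay 96 to 98 bp before the start and were weak, at percentiles 5.04 and 8.15 of all promoter summits. The region in code 11 was 161 bp wide, against a narrowest width of 150 bp in the list. The shares of all genes set beside CDC37 cover all chromosomes, and those of chromosome IV alone are not given. In code 8 the genes on chromosome IV had a median log2 change of 0.18, against -0.05 elsewhere.

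The summits of the chaperone genes were tall beside those of other genes. The median relative pileup of the members was 5.85 and 5.83 (code 8) at 0 and 180 min, and 5.75 and 6.31 (code 11). The medians of all protein-coding genes with a summit were 3.68, 3.62, 3.62 and 3.74 in the same order. The median member stood at percentiles 82.35 and 82.2 of all genes in code 8, before and after, and at 82.4 and 83.5 in code 11. More than 2 times the median of all genes was reached by 9 of 28 members in code 8 at 0 min (9.16% of all genes), 8 of 29 at 180 min (9.88%), 8 of 29 in code 11 at 0 min (9.09%) and 8 of 28 at 180 min (10.1%). The levels differed more between members than between lists. The standard deviation of the log2 level over the 4 lists had a median of 0.06 over the 28 members, near the 0.07 of all genes, and was at most 0.15. On the same scale the members' mean levels ran from 0.75 (SSB2) to 3.70 (CPR1). Single levels ran from 1.61 to 14.25 times the background.

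**Figure D1:**
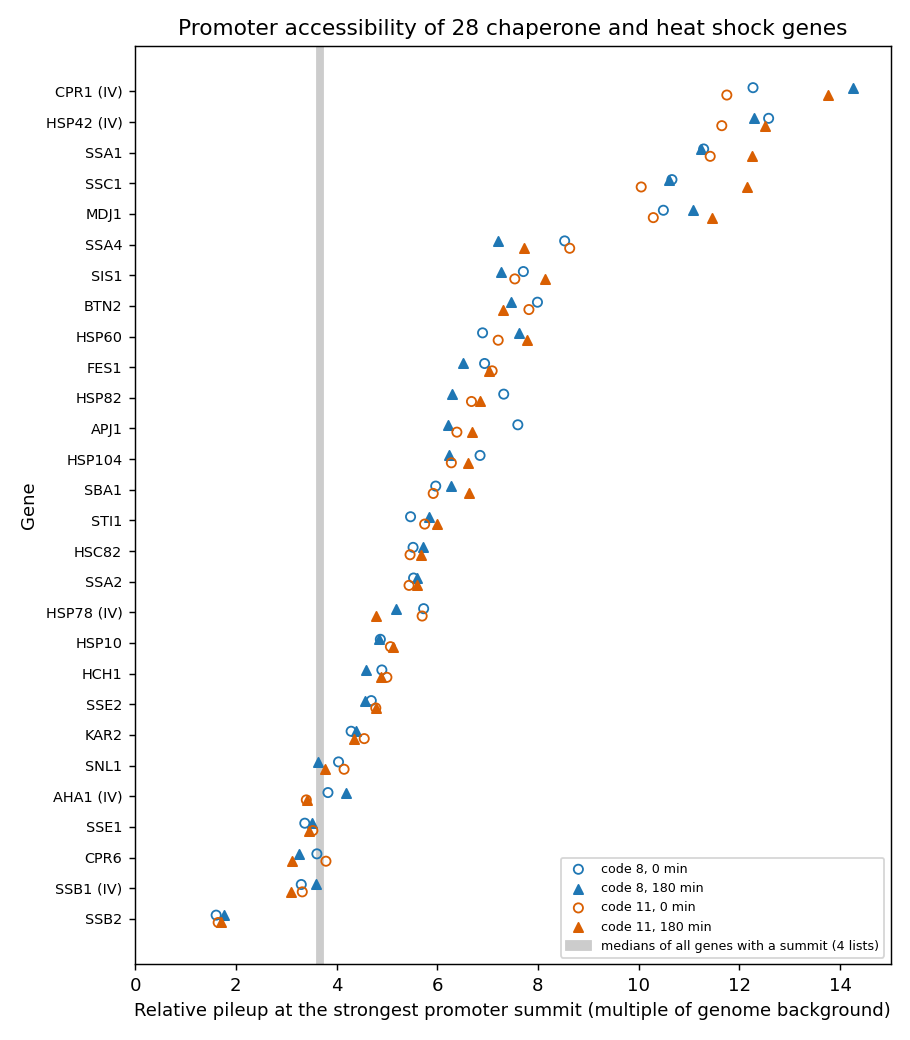
Relative pileup (multiples of the genome background, x axis) at the strongest promoter summit of the 28 members with a summit in all 4 lists, ordered by their geometric mean. Open circles are 0 min and filled triangles 180 min, blue is code 8 and orange code 11, and the grey band spans the medians of all genes (3.62 to 3.74); CPR1 and HSP42 stand highest, SSB2 stands alone at 1.61 to 1.76.

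The Hsp70 genes spanned almost the whole range of levels. SSA1 (YAL005C, chromosome I, 139503 to 141431), a cytosolic Hsp70, had 11.29 and 11.24 (code 8) at 0 and 180 min and 11.42 and 12.25 (code 11). Its paralog SSA2 (YLL024C, chromosome XII) had 5.53, 5.60, 5.44 and 5.60. SSA1 was thus about 2 times as high in every list, and the ranges of the pair did not overlap. SSA1 stands head to head with EFB1, a translation elongation factor gene, across a gap of 742 bp, so its window looks onto a shared intergenic space. SSA2 lies in tandem behind POM33 with a gap of 511 bp.

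SSA4 (YER103W, chromosome V, 364589 to 366517), a stress-induced Hsp70, had 8.53 and 7.20 (code 8) and 8.63 and 7.72 (code 11). Both codes were lower at 180 min, by a log2 change of -0.24 and -0.16, and the 0 min values lay above both 180 min values. Its induced paralog SSA3 had no summit in the window. SSA4 had a second summit 161 to 167 bp before its start, which went from 7.16 to 5.74 (code 8) and from 6.99 to 5.89 (code 11).

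SSB1 and SSB2 encode the ribosome-bound Hsp70 that meets new polypeptides. SSB2 (YNL209W, chromosome XIV, 252059 to 253900) had the lowest summit of the members, with 1.61, 1.76, 1.65 and 1.70. SSB1 (YDL229W, chromosome IV, 44065 to 45906) had 3.30, 3.60, 3.32 and 3.09. The pair did not overlap, and SSB2 stood at percentiles 1.49 to 3.57 of all promoter summits.

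The organelle Hsp70 genes differed as well. SSC1 (YJR045C, chromosome X), the mitochondrial Hsp70 that drives protein import, had 10.66 and 10.60 (code 8) and 10.05 and 12.15 (code 11). Its log2 change of 0.27 in code 11 was at percentile 98.8 of all genes off chromosome IV, while the change in code 8 was -0.01. SSC1 stands head to head with TAH11 across a gap of 445 bp, so this summit cannot be assigned to either gene alone. KAR2 (YJL034W, chromosome X), the Hsp70 of the endoplasmic reticulum, had 4.29, 4.38, 4.55 and 4.34. The KAR2 values of the times overlapped.

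Among the exchange factors of Hsp70, FES1 had the highest summit, with 6.94, 6.51, 7.09 and 7.03. SSE1 and SSE2 encode the Hsp110 proteins. SSE1 had 3.37, 3.51, 3.53 and 3.46 and SSE2 had 4.69, 4.57, 4.78 and 4.79, so SSE2, the paralog known as the stress-induced one, was higher in every list. SSE1 had a pair of summits of nearly equal height, 129 to 142 bp and 289 to 296 bp before its start, and which of them was taller changed between lists. SNL1 (YIL016W, chromosome IX), a membrane-anchored exchange factor, had 4.04, 3.63, 4.15 and 3.78. SNL1 was lower at 180 min in both codes, with log2 changes of -0.16 and -0.13, and its times did not overlap. With the window narrowed to 250 bp, which leaves out this summit, the change in code 11 was 0.02. SNL1 stands head to head with VID28 across a gap of 488 bp, so its summits cannot be assigned to either gene alone.

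Of the J proteins, MDJ1 (YFL016C, chromosome VI), the partner of SSC1 in the mitochondrial matrix, had 10.49, 11.07, 10.29 and 11.45. Its strongest summit in the window lay 317 to 323 bp before the start, inside the annotated open reading frame YFL015C. A summit just upstream of the window was taller at 0 min, with 10.71 (code 8) and 10.77 (code 11). With the window extended to 1000 bp upstream, the log2 change of MDJ1 in code 11 was 0.09 rather than 0.15, which is below 1.1-fold. SIS1 (YNL007C, chromosome XIV), an essential cytosolic J protein, had 7.71, 7.26, 7.54 and 8.13. APJ1 (YNL077W, chromosome XIV, 481391 to 482977), a J protein of aggregate clearance, had 7.60 and 6.21 (code 8) and 6.39 and 6.69 (code 11). Its log2 change of -0.29 in code 8 was at percentile 1.88 of all genes off chromosome IV. The value of APJ1 that stood apart was that of code 8 at 0 min, which was 0.25 above code 11 at the same time on the log2 scale, the widest gap between codes of any member at 0 min.

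The Hsp90 genes and most of their co-chaperones lay between 3 and 8 times the background. HSC82 (YMR186W, chromosome XIII), the constitutive Hsp90, had 5.52, 5.72, 5.46 and 5.67. HSP82 (YPL240C, chromosome XVI, 96496 to 98625), its heat-induced paralog, had 7.32, 6.30, 6.68 and 6.85. HSP82 was higher than HSC82 in every list, and its log2 change was -0.22 in code 8 and 0.03 in code 11. STI1, which links Hsp70 with Hsp90, had 5.47, 5.83, 5.75 and 6.0. SBA1, the p23 co-chaperone, had 5.97, 6.28, 5.92 and 6.64. Both stood slightly higher at 180 min in each code.

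CPR6 (YLR216C, chromosome XII, 572096 to 573211), a cyclophilin that binds Hsp90, had 3.61 and 3.25 (code 8) and 3.79 and 3.11 (code 11). It was lower at 180 min in both codes, with log2 changes of -0.15 and -0.29, the second at percentile 0.753 of all genes off chromosome IV. The window held 2 summits, and they differed. The outer summit, 335 to 371 bp before the start, went from 3.61 to 2.60 (code 8) and from 3.79 to 2.63 (code 11). The inner one, 120 to 143 bp before the start, went from 3.21 to 3.25 and from 3.28 to 3.11. The outer summit lay inside the upstream gene COA4, which ends 254 bp before CPR6, so it need not belong to CPR6.

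AHA1 and HCH1 encode related activators of the Hsp90 ATPase. AHA1 (YDR214W, chromosome IV) had 3.83, 4.19, 3.40 and 3.41, and HCH1 (YNL281W, chromosome XIV) had 4.90, 4.59, 5.00 and 4.88. HCH1 was higher in every list. The code 8 values of AHA1 both lay above those of code 11.

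The disaggregase HSP104 (YLL026W, chromosome XII, 88623 to 91349), which threads proteins out of aggregates, had 6.85, 6.23, 6.28 and 6.62. BTN2 (YGR142W, chromosome VII), which sorts misfolded proteins, had 7.99, 7.47, 7.82 and 7.30, lower at 180 min in both codes. HSP42 (YDR171W, chromosome IV, 806621 to 807748), a small heat shock protein, had 12.58, 12.29, 11.65 and 12.50. HSP78 (YDR258C, chromosome IV, 971808 to 974243), the mitochondrial disaggregase, had 5.73 and 5.18 (code 8) and 5.70 and 4.78 (code 11). The HSP78 times did not overlap, while those of HSP104 and HSP42 did.

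HSP60 and HSP10 encode the mitochondrial chaperonin and its lid. HSP60 (YLR259C, chromosome XII) had 6.90, 7.63, 7.21 and 7.79 and was higher at 180 min in both codes. HSP10 (YOR020C, chromosome XV) had 4.87, 4.84, 5.07 and 5.13. CPR1 (YDR155C, chromosome IV, 768512 to 769000), the cytosolic cyclophilin, had the tallest summit of the members, with 12.27, 14.25, 11.75 and 13.75. It stands head to head with RPA14, an RNA polymerase I gene, so the summit cannot be assigned to either gene alone.

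From 0 to 180 min the promoters of the 23 members off chromosome IV with a summit at both times moved little and in no common direction. In code 8 their median log2 change was -0.01, from -0.29 to 0.14, and that of all genes off chromosome IV was -0.05. In code 11 it was 0.04, from -0.29 to 0.27, and that of all genes was 0.04. A log2 change of at least 0.32 in size was reached by 0 of 23 members in either direction in either code. Among all genes off chromosome IV, 0.217% were higher and 1.18% lower by that much in code 8, and 0.522% were higher and 0.369% lower in code 11. The absolute change of the members had a median of 0.09 in code 8 and 0.07 in code 11, near the 0.07 and 0.08 of all genes. Between the codes at 0 min, with no treatment, the absolute log2 difference had a median of 0.03 over 28 members and reached 0.25. These include the members on chromosome IV, and the median over all genes was 0.05.

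With a smaller threshold of 1.1-fold, 5 members were lower in code 8 (SSA4, HSP82, APJ1, CPR6 and SNL1), where 19.1% of all genes were. HSP60 was the 1 member higher, where 3.17% of all genes were. In code 11, SSA4 and CPR6 were lower, where 6.67% of all genes were, and 3 members were higher (SSC1, MDJ1 and SBA1), where 16.3% were. SSA4 and CPR6 were the 2 members lower by that much in both codes, a state found in 3.53% of all genes. None of the 23 was higher by that much in both, where 0.985% of all genes were. The members' shares stand beside those of all genes with no test. With the authors' fold in place of the pileup, 2 members were lower in code 8 and 1 in code 11. By role, the 6 Hsp70 genes off chromosome IV with a summit at both times had a median log2 change of 0.01 in code 8 and 0.04 in code 11, and the 6 Hsp90 and co-chaperone genes had -0.02 and 0.04.

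**Figure D2:**
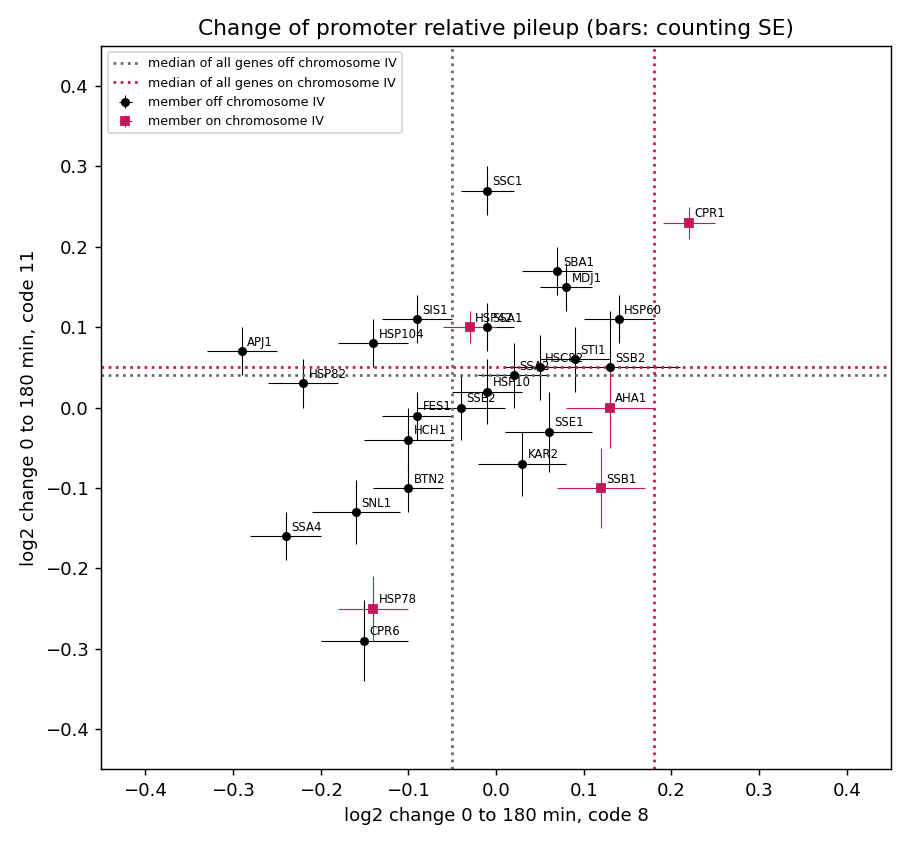
Log2 change of relative pileup from 0 to 180 min in code 8 (x axis) and code 11 (y axis) for the 28 members with a summit in all 4 lists; bars are the counting standard error and dotted lines the medians of all genes on and off chromosome IV. SSA4, CPR6, SNL1 and HSP78 lie lower left in both codes, CPR1 lies upper right, and APJ1 and HSP82 are low in code 8 alone.

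The members on chromosome IV have to be read against that chromosome. DNA copy number was not measured, so a higher relative pileup on this chromosome need not mean a more open promoter. In code 8 all genes on chromosome IV with a summit at both times had a median log2 change of 0.18, against -0.05 elsewhere, and in code 11 0.05 against 0.04. The 5 members had a median of 0.12 in code 8, from -0.14 to 0.22, and of 0.00 in code 11, from -0.25 to 0.23. In code 8 CPR1 was at 0.22, AHA1 at 0.13 and SSB1 at 0.12, while HSP42 was at -0.03 and HSP78 at -0.14. HSP78 and HSP42 thus stood at percentiles 0.287 and 2.59 of the chromosome's genes. HSP78 was low in code 11 as well, at -0.25 and percentile 1.08, whereas HSP42 was at 0.10 and percentile 71.7. By the authors' fold HSP78 was at -0.22 in code 8 but at -0.06 in code 11, where its local background went from 1.47 to 1.29.

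At 1.1-fold, CPR1 was the 1 of 5 members higher in code 8, where 68.8% of all genes on chromosome IV were, and HSP78 the 1 member lower, where 0.575% were. In code 11 the same pair was called, CPR1 higher, where 17.6% of the chromosome's genes were, and HSP78 lower, where 5.1% were. Both of these code 11 calls were lost with the authors' fold, which gave 0.08 for CPR1 and -0.06 for HSP78. At a log2 change of 0.32 in size, 0 of 5 members were called in either direction, where 13.4% were higher and 0.0% lower in code 8, and where code 11 had 0.392% and 0.588%. The local background was higher at 180 min beside each of these 5 members in code 8. At AHA1 it went from 1.20 to 1.61 times the genome background, at CPR1 from 1.79 to 2.17 and at HSP42 from 1.89 to 2.16. Measured as the authors' fold over that local background, the median log2 change of the 5 members in code 8 was -0.22 and that of CPR1 was -0.07, both of the opposite sign. Inside the gene, the tallest body summit of AHA1 went from 2.76 to 3.98 (code 8) and from 2.69 to 3.56 (code 11), and that of HSP42 from 3.40 to 4.45 and from 3.43 to 3.63. That of HSP78 went the other way, from 2.12 to 1.80 and from 2.03 to 1.42. CPR1 had a body summit of 3.18 in code 8 at 0 min and none in the other lists. All summits on chromosome IV matched between the times within 50 bp had a median log2 change of 0.21 in code 8 and 0.04 in code 11.

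Called regions reached into the coding sequence of many chaperone genes, which need not mean access along its whole length. Regions that spread from the promoter count here as well. CPR1 (489 bp) was fully covered in all 4 lists, with a body summit in code 8 at 0 min alone. Several of the tallest body summits lay near the gene end, such as 1837 bp into the 1929 bp of SSA1 in code 8. The share of the gene body inside called regions had a median of 32.67% over the 32 members in code 8 at 0 min and of 23.96% at 180 min, and of 33.49% and 22.04% (code 11). The median over all protein-coding genes was 0.0% in all 4 lists. A summit more than 100 bp inside the gene was called in 18 members at 0 min in code 8 (19.1% of all genes) and in 16 at 180 min (18.0%). In code 11 it was 18 members at 0 min (20.3% of all genes) and 16 at 180 min (18.8%). Promoter regions of at least 1200 bp were found for 8 of 28 members in code 8 at 0 min (14.3% of all genes), 7 of 29 at 180 min (14.4%), 9 of 29 in code 11 at 0 min (15.7%) and 9 of 28 at 180 min (14.0%). SSA1 with SSA2, SSB1 with SSB2 and HSC82 with HSP82 have near-identical coding sequences. The sources used here do not say how reads matching both copies were placed, so the gene-body values of these pairs are uncertain.

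SSA4 was covered over its whole length at 0 min in both codes, and over 91.6% and 91.8% at 180 min. The called region that holds its promoter was 3217 bp wide at 0 min in code 8 and 1527 bp at 180 min, and 3031 bp and 1527 bp (code 11). Every SSA4 summit matched between the times within 50 bp was lower at 180 min, in both codes. The summit near the 3′ end, 1844 to 1845 bp into the gene, went from 4.95 to 4.04 (code 8) and from 5.24 to 4.52 (code 11). The summit 1378 to 1382 bp into the gene went from 3.38 to 2.61 and from 3.41 to 2.74, at percentiles 1.04 and 0.878 of all matched summits off chromosome IV. The authors' fold at the SSA4 promoter changed by -0.04 and 0.02 on the log2 scale. The local background there went from 2.19 to 1.90 and from 2.22 to 1.96. Whether fragments of the summit itself entered that background is not stated, and whether the surroundings were lower apart from it was not tested.

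HSP82 had a tall summit at its 3′ end, 2091 to 2097 bp into the gene, which went from 5.28 to 4.32 (code 8) and from 5.07 to 4.68 (code 11). Across the 858 bp gap to the divergent gene YAR1, a further summit 617 to 621 bp before the start went from 6.75 to 6.35 and from 7.27 to 6.86. In code 11 the body cover of HSP82 went from 55.3% to 25.6%, while in code 8 it went from 53.1% to 50.1%. HSP104 held 6 body summits in code 8 at 0 min, the first 1063 bp into the gene, with levels from 2.79 to 3.99. Those matched at 180 min were all lower in code 8 and mixed in code 11.

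**Figure D3:**
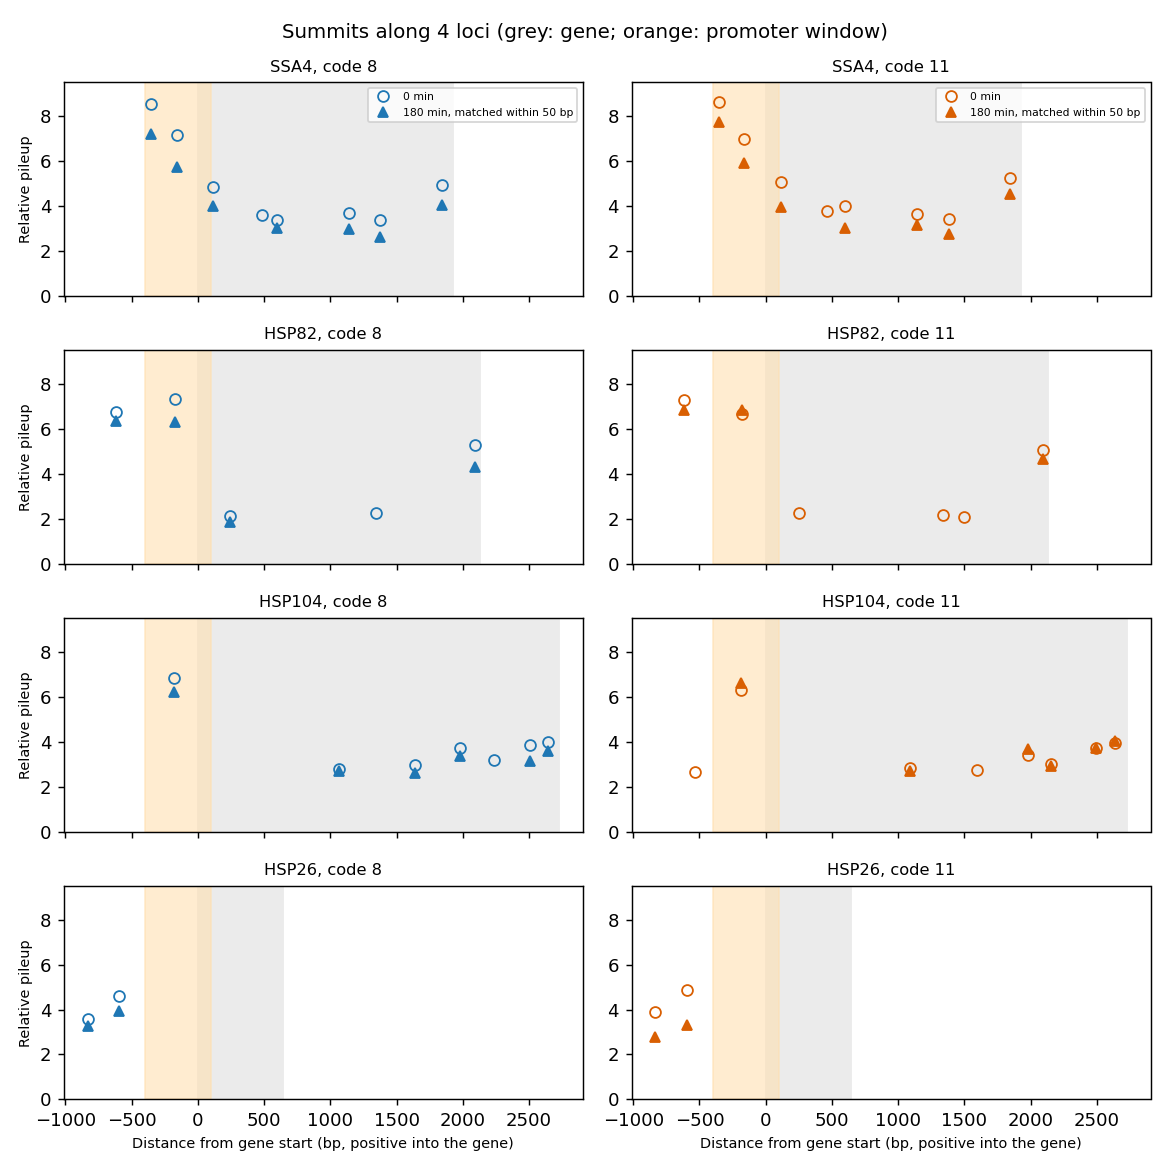
Relative pileup of each 0 min summit (open circles) and of the 180 min summit within 50 bp of it (filled triangles) against the distance from the gene start in bp, for SSA4, HSP82, HSP104 and HSP26 in code 8 (left) and code 11 (right). Summits at 180 min with no 0 min summit within 50 bp are not drawn. Grey marks the gene and orange the promoter window; circles without a triangle have no matched summit, the triangles of SSA4 lie below the circles in both codes, and HSP26 has no summit inside the window.

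Body cover was lower at 180 min by at least 20 percentage points in 3 of the 20 members that had at least 20% cover at 0 min in code 8 (SSE2, HSP78 and BTN2), where it was lower by that much in 10.7% of all genes with such cover. In code 11 it was these 3 and HSP82, or 4 of 21, against 10.5% of all such genes. A gain of 20 points was found in 0 of the 27 members with room for it in either code, against 1.7% and 0.878% of all genes with at most 80% cover at 0 min. SSE2 went from 39.7% to 5.38% (code 8) and from 53.8% to 8.65% (code 11). HSP78 went from 40.1% to 12.4% and from 43.3% to 12.6%, and BTN2 from 44.6% to 24.0% and from 45.5% to 10.1%. The body summits of SSE2 at 0 min were weak, 1.29 to 1.43 times the background, and lay in its 3′ part. The 180 min lists were shorter as a whole, with 6588 sub-peaks against 6838 in code 8 and 6654 against 7093 in code 11, and the part of list length in these values was not tested. Counted over all genes off chromosome IV, body summits went from 1483 to 1272 (code 8) and from 1588 to 1414 (code 11), and over the members off chromosome IV from 42 to 38 and from 34 to 30.

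The tallest body summit at 0 min was followed to the summit within 50 bp of it at 180 min, which existed in 9 members off chromosome IV in code 8 and in 10 in code 11. Its median log2 change over these members was -0.20 in code 8, against -0.06 over all genes off chromosome IV, and -0.08 against 0.02 in code 11. In code 8, 8 of the 9 were lower by at least 1.1-fold (SSA2, SSA4, HSC82, HSP82, HSP104, HSP60, SIS1 and KAR2), where 30.2% of all genes were, and 0 were higher, where 8.26% were. In all of these but SIS1 the followed summit lay close to the gene end, so it cannot be assigned to that gene alone. It lay 2024 bp into the 2049 bp of KAR2 and 2641 bp into the 2727 bp of HSP104. In code 11, 3 of the 10 were lower (SSA4, HSC82 and SSE1), where 12.0% of all genes were, and 0 were higher, where 17.9% were. SSA4 and HSC82 were lower in both codes, with HSC82 at 3.12 and 2.72 and at 3.04 and 2.76. For SSC1 and FES1 no summit at 180 min lay within 50 bp of the tallest one at 0 min in either code. In SSC1 the tallest body summit was 2.24 at 0 min and, at another place, 2.84 at 180 min (code 8), and 2.07 and 2.92 (code 11). FES1 stayed between 1.12 and 1.46 in all lists.

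**Figure D4:**
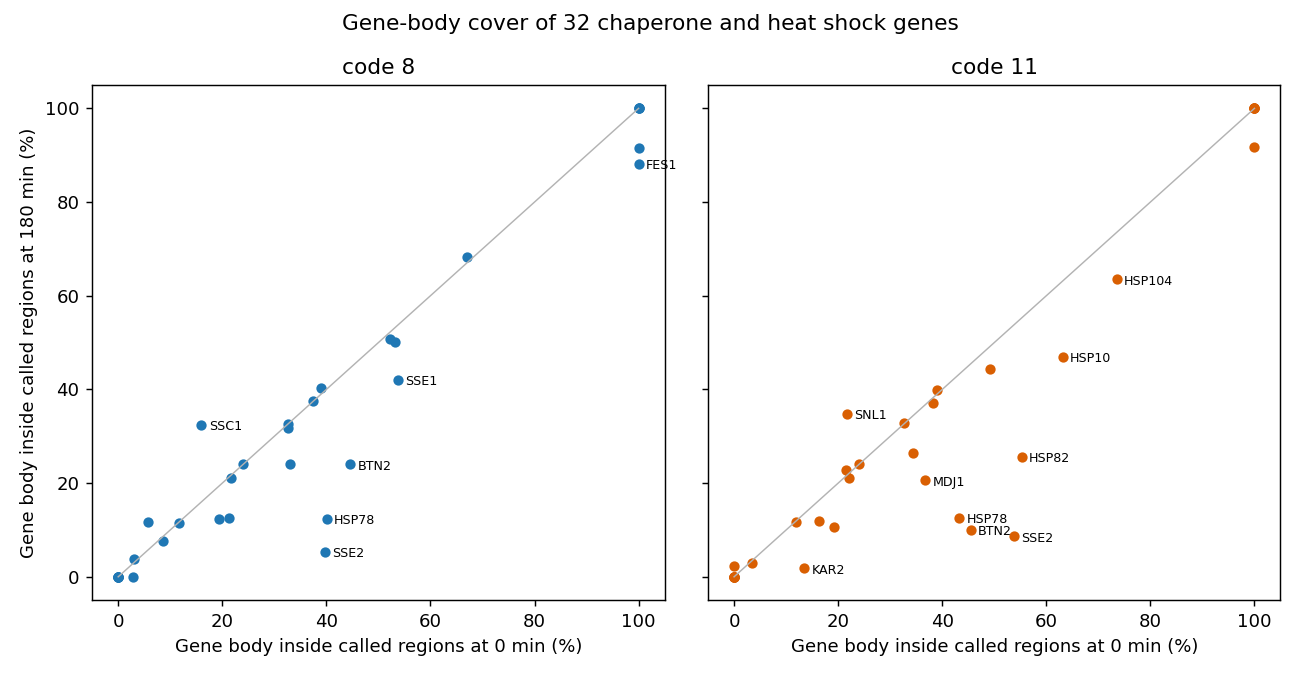
Share of the gene body inside called regions (%) at 0 min (x axis) and at 180 min (y axis) for the 32 members in code 8 (left) and code 11 (right); the line marks equal values and genes that differ by at least 10 points are named. SSE2, HSP78 and BTN2 lie far below the line in both codes.

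HSP26 and YDJ1, which lacked a summit in the window, had called summits further upstream. HSP26 (YBR072W, chromosome II, 382030 to 382674), a small heat shock protein that is strongly induced by stress, had its tallest upstream summit 592 to 632 bp before the start, within a gap of 983 bp. It went from 4.59 to 3.93 (code 8) and from 4.85 to 3.32 (code 11). A companion 827 to 844 bp before the start went from 3.60 to 3.26 and from 3.89 to 2.77. HSP26 was thus lower at 180 min at both of these summits in both codes, with log2 changes of -0.22 and -0.55 at the taller one. A further upstream summit was called at 180 min alone. It lay 511 bp before the start in code 8, at 3.22, and 506 bp before it in code 11, at 2.67.

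In code 11 the HSP26 change was at percentile 0.176 of matched summits off chromosome IV. With the window extended to 1000 bp upstream, HSP26 was the 1 of 25 members with a log2 change of -0.32 or lower in code 11, where 0.541% of all genes were, and 0 of 25 were in code 8, where 1.15% were. None was higher, where 0.13% of all genes were in code 8 and 0.901% in code 11. HSP26 was picked out here after its values were seen.

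YDJ1 (YNL064C, chromosome XIV, 505868 to 507097), a major cytosolic J protein, missed the window by a few bases. Its summit lay 411 to 417 bp before the start and had 5.97, 5.86, 5.68 and 6.34. By contrast KAR2 and SBA1 have minor summits just inside the edge, 386 to 398 bp before their starts. SSA3 (YBL075C, chromosome II, 84499 to 86448) had no called summit between its start and 1478 bp upstream in any list, and the nearest one beyond had 4.15, 4.23, 4.14 and 4.29. The tandem neighbour AAR2 ends 273 bp before SSA3. Inside SSA3 itself a single weak summit was called, with 1.38 in code 11 at 180 min.

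Within the window, the strongest summit of the 28 members in code 8 at 0 min lay between genes in 26 and inside a neighbouring gene in MDJ1 and CPR6. Its distance to the start had a median of 228 bp, against 179 bp for all genes. Of the members, 11 of 32 had a divergent upstream gene, where 51.9% of all genes did. They were CPR1, HSP10, HSP60, HSP82, KAR2, SBA1, SIS1, SNL1, SSA1, SSC1 and YDJ1. A summit in such a shared gap cannot be assigned to either gene alone. The divergent members with a summit in all 4 lists had a median geometric mean level of 7.08 (10 genes) and the tandem ones 5.56 (18 genes). Over all genes those medians were 3.99 and 3.46. The members' upstream gaps had a median of 456 bp, against 455 bp over all genes.

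The wider pathway was described with 50 further genes, which include other J proteins, the cytosolic chaperonin CCT, prefoldin and the regulators of the response. Of these, 30 were called at the promoter in all 4 lists and 16 had none, next to the 60.8% and 31.2% of all genes given above. ZUO1, RPN4, JEM1 and TCP1 had one in some lists only. Where called, ZUO1, JEM1 and TCP1 were weak, at 1.60 to 2.02. RPN4 was tall, at 8.32 in code 8 at 0 min and 8.11 in code 11 at 180 min. Whether its summit lay outside the window in the other lists was not tested. HSF1 itself, the master regulator, had 5.54, 5.41, 5.64 and 5.62 and hardly differed between lists. MBF1, a transcriptional coactivator, had the tallest summit of these genes off chromosome IV, with 12.12, 12.17, 11.82 and 12.97.

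Off chromosome IV the further genes had a median log2 change of -0.01 in both codes, and none reached 0.32 in size. At 1.1-fold, 5 of 26 were lower in code 8 (CCT7, CUR1, MDJ2, MGE1 and SCJ1) and 1 of 27 in code 11 (CCT3), against the 19.1% and 6.67% of all genes given above. In the other direction 1 and 4 were higher, against 3.17% and 16.3% of all genes. SIL1, an exchange factor of the endoplasmic reticulum, was higher in both, from 3.67 to 4.17 and from 3.72 to 4.15. The CCT subunits did not move together. CCT5 went from 4.83 to 5.21 (code 8) and from 5.02 to 4.79 (code 11), and CCT6, on chromosome IV, from 9.72 to 11.33 and from 9.46 to 10.55.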

How the data were processed

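ATAC-seq peak lists of 4 code and time combinations were used. MACS2 2.2.4, HOMER, Picard, SAMtools and Bowtie2 2.3.4.3 are named, with no roles, in the submitters' processing notes, as is the build, sacCer3. The sources used here do not state pooling of replicates or a Tn5 shift. The lists as deposited by the authors hold a whole-number score, the fold enrichment (a linear ratio over local background), and -log10 p and -log10 q per sub-peak. The fold was taken as (pileup + 1)/(background + 1) and p as a Poisson tail, a form no header states, which gave both the pileup and the local background of each sub-peak. Between 99.1% and 99.8% of pileups came out whole within 0.05, where 10% would by chance. The solution was tested on simulated data. The smallest background of a list was taken as its genome background. Read totals per sample are unknown.

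A gene's value is its tallest summit in the window, and percentiles are among genes with a summit. Gene starts came from the RefSeq table of R64, strands from systematic names. Motif searches and promoter sequences were not used here. All 32 members were named, with values for the 4 highest and lowest, the largest changes, the paralog pairs and chromosome IV. Members and lists were chosen with earlier results of these data known. Alternatives changed the window, threshold, summary, centring and summit matching. Python 3.11.15, SciPy 1.17.1 and pandas 2.3.3 were used.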

Additional observations from a re-analysis of the deposited data

How the results depend on the processing

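No paired analysis was possible because the lists carry no replicate number and none of the results comes from a test. The numbers of members with a promoter summit stayed within 1.5 times under each window, the stricter threshold and the count of any region over the window. With a window of 250 bp, 21 rather than 28 members had one in code 8 at 0 min. The share of all genes in that window is not given. The medians and percentiles of the relative pileup stayed within 1 standard deviation over the members. That bound is wide, at 23.0 percentile points in code 8 at 0 min. With the authors' fold the median percentile there was 73.9 rather than 82.35, and in code 11 at 0 min 72.1 rather than 82.4. On chromosome IV the median log2 change in code 8 was -0.22 with the authors' fold, and the cause was not tested. With a window of 250 bp it was -0.03. That window leaves out the summits of SSB1 and AHA1, so this is the value of HSP42 among HSP78, HSP42 and CPR1. Off chromosome IV, where 0 members passed a log2 change of 0.32 in size, at 1.1-fold 1 was higher and 5 lower in code 8, and 3 higher and 2 lower in code 11. With summits matched within 50 bp, CPR6 alone was lower by 0.32 or more, 1 member in each code, and with centring 1 was lower in code 11. With 1000 bp upstream, an alternative added after the data were seen, 1 was lower in code 11. At 1.1-fold, also added later, the members higher in code 8 became 2 with summed sub-peaks and 2 with centring. Those lower in code 8 became 2 with the authors' fold, 3 with centring and 2 with 250 bp. In code 11, 1 was higher with centring and 1 with 250 bp, and 1 was lower with the authors' fold and 1 with 250 bp. The cause was not tested. Of the log2 changes of single members under these settings, 235 stayed within the 95% counting interval of the value reported and 29 did not. This count pools settings that leave many values unchanged, such as summed sub-peaks where a gene has a single summit. With the authors' fold in code 8, SSA4 went from -0.24 to -0.04 and HSP82 from -0.22 to -0.03. By the same measure APJ1 was at -0.26 and CPR6 at -0.15, within their intervals. Following body summits within 50 bp, and comparing body cover only among genes with room to change, were choices made after the data were seen. With the tallest body summit taken at each time, SSC1 counted as higher in both codes. The heat shock element alternatives were not run. Without replicates, depth bounds only counting error.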
